A study of Gallus gallus with 6 samples.

Results

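A set of 56 genes in the chicken forelimb bud was picked out because each was higher in experiment 1 than in experiments 2 and 3, with both the FGF2 and the PBS bead, and lower with FGF2 than with PBS in experiment 1. FGF2 or PBS beads had been placed in the posterior mesoderm of Hamburger-Hamilton stage 23 forelimb buds, about 500 µm from the distal tip, and RNA was taken 3 h later from tissue just posterior to the bead. There were 3 libraries with FGF2 (recombinant human protein on a heparin acrylic bead) and 3 with PBS, the vehicle on the same kind of bead. Each library pooled 15 to 20 limbs, and the labels give no strain, sex or genetic change, so the spread between embryos is not measured. Libraries are called by their replicate number (FGF2 library 1, PBS library 1), and an FGF2 and a PBS library that share a number were treated as coming from 1 experiment. Levels are in RPKM, which are read counts corrected for gene-model length and for the library's total.

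The members were chosen by their RPKM in all 6 libraries, out of 24881 Ensembl gene IDs. A gene had to average at least 5 RPKM over the libraries, which 7551 did. PBS library 1 had to be at least 8 times PBS library 2 and at least 3 times PBS library 3. FGF2 library 1 had to be at least 3 times FGF2 library 2 and at least 2.5 times FGF2 library 3, and it had to be below PBS library 1. Of the 7551 genes, 311 met the first PBS ratio, 248 the second PBS ratio, 748 the first FGF2 ratio and 543 the second FGF2 ratio. All 4 ratios were met by 60 genes, of which 56 also had FGF2 library 1 below PBS library 1. The high level in experiment 1 and the lower level with FGF2 there are therefore how the genes were found. They are described here, without a test.

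Limb buds grow out under a feedback loop. The apical ectodermal ridge at the tip secretes FGFs, these keep Sonic hedgehog (SHH) on in the posterior mesoderm, and SHH in turn keeps the ridge FGFs on. A bead of FGF2, which binds FGF receptors with heparan sulfate and drives the MAP kinase cascade, is used to extend that signal to cells that are leaving its range. A bulk sample of such tissue holds mesenchyme together with ectoderm, vessels, blood cells and muscle precursors, and its exact makeup depends on the dissection. In bulk RNA, fewer cells of a type and less RNA per cell cannot be told apart.

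No gene name can be given to the 56 IDs, because neither the files nor the gene table pairs Ensembl IDs with symbols. For the same reason the levels of marker genes of blood, vessel, muscle, ectoderm or limb mesenchyme were not analysed here, and the labelled tissue was not checked against its markers. What the genes have in common is thus described by their levels, the lengths of their gene models and their ID numbers.

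The libraries differed in depth. From the steps of the RPKM values, the FGF2 libraries came to 15318608, 21359458 and 19807865 counted reads in experiments 1, 2 and 3, against 5222427, 16726321 and 16883479 for the PBS libraries. PBS library 1, in which the 56 genes were highest, was thus also the shallowest library. FGF2 library 1, with the second highest level of the genes, was the second shallowest, though its depth was near that of PBS libraries 2 and 3. The part of depth in the levels of the 56 genes was not tested. Over all 7551 genes with at least 5 RPKM, the median level was 21.8, 18.0 and 21.1 RPKM in FGF2 libraries 1 to 3, against 18.4, 17.9 and 19.4 RPKM in PBS libraries 1 to 3, so the typical gene did not follow the pattern of the 56.

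The 56 genes took up very different shares of the libraries. They held 60125 reads in FGF2 library 1, 13270 in FGF2 library 2 and 20174 in FGF2 library 3, against 105433, 15391 and 48552 reads in PBS libraries 1, 2 and 3. As a share of counted reads this was 0.392%, 0.0621% and 0.102% with FGF2, against 2.02%, 0.0920% and 0.288% with PBS. PBS library 1 had the most reads in these genes and the fewest reads in all. Its place as the library with the highest share is set by the choice, which makes each gene highest there in RPKM. The 2 highest genes, which are short, accounted for 12.4% of the genes' reads there and for 5.86% in FGF2 library 1. Most of the share therefore lay in the other 54 genes.

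**Figure D1:**
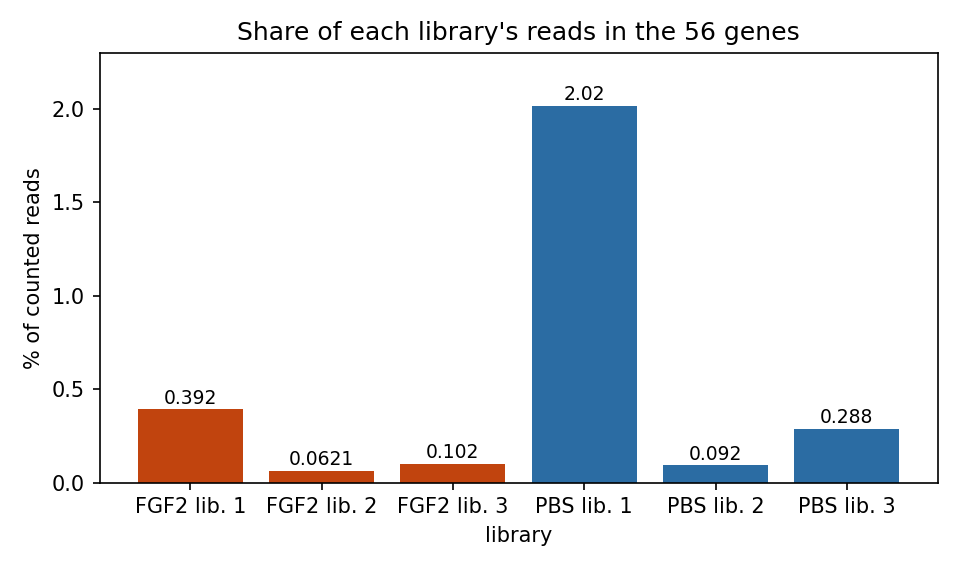
Percent of each library's counted reads that fell in the 56 genes (vertical axis) in the 3 FGF2 libraries and the 3 PBS libraries (horizontal axis), 1 bar per library with no error bar. PBS library 1, which the choice of the genes makes highest, stands at 2.02% and FGF2 library 1 at 0.392%, and the other 4 libraries lie between 0.0621% and 0.288%.

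The median level of the 56 genes was 30.5, 4.81 and 5.73 RPKM in FGF2 libraries 1, 2 and 3, against 153, 5.71 and 22.8 RPKM in PBS libraries 1, 2 and 3. Experiment 1 was high with both beads, experiment 2 was low with both beads, and experiment 3 was low with FGF2 and in between with PBS. The spread of levels among the genes was wide in every library. In FGF2 library 1 they ran from 4.62 to 462 RPKM, and in PBS library 1 from 14.7 to 5505 RPKM. Reads were found in every library for 52 of the 56 genes, and at least 10 reads in every library for 41.

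**Figure D2:**
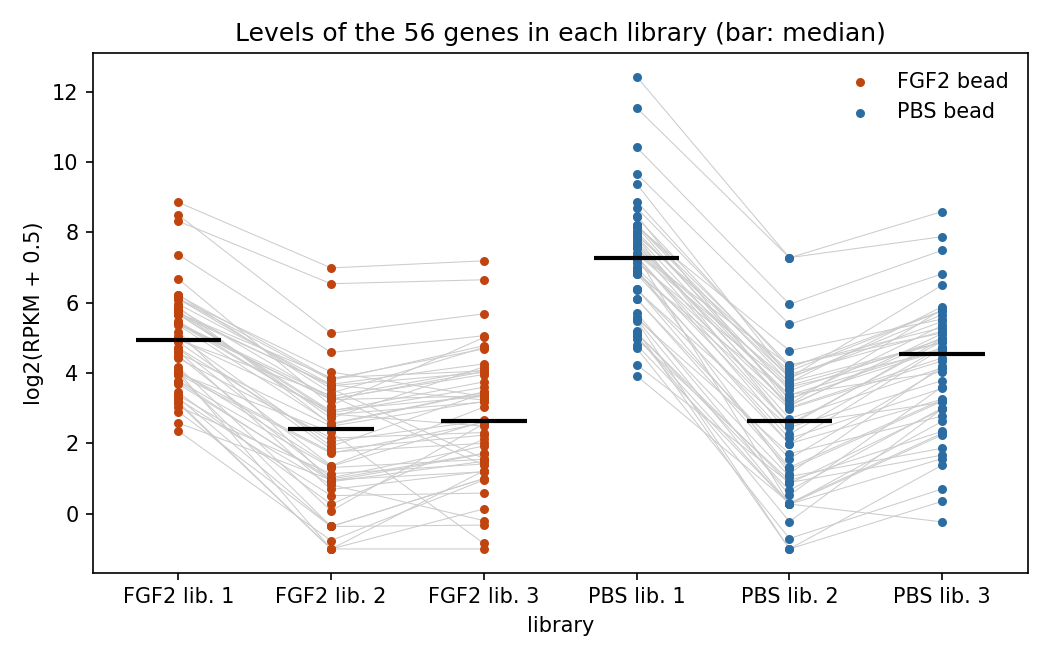
Level of each of the 56 genes as log2(RPKM + 0.5) (vertical axis) in the 3 FGF2 and the 3 PBS libraries (horizontal axis). Each point is a gene, grey lines join a gene's libraries of 1 treatment, and black bars mark the median, which is highest in PBS library 1 and next highest in FGF2 library 1.

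The top places in the order of the libraries were much the same from gene to gene, while the lower places varied. PBS library 1 was highest in all 56, as the choice of the genes requires, and FGF2 library 1 came second in 50. In the remaining 6 genes PBS library 3 came second. The choice also puts FGF2 library 1 above FGF2 libraries 2 and 3, so only PBS libraries 2 and 3 were free to come before it. PBS library 1, FGF2 library 1 and PBS library 3 led in this order in 45 genes, and in 23 of these FGF2 library 3 came next. The lowest library was FGF2 library 2 in 37 genes, PBS library 2 in 14 and FGF2 library 3 in 5. PBS library 3 lay above PBS library 2 in 55 of 56 genes and FGF2 library 3 above FGF2 library 2 in 48. Of the 13381 genes averaging at least 0.5 RPKM, 7668 and 7632 had these orders. The limits used to choose the genes are looser for library 3 than for library 2 in both treatments, so they favour this order.

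The steps between libraries can be given as ratios. PBS library 1 was at a median of 25.7 times PBS library 2 (54 genes with reads in PBS library 2) and 7.06 times PBS library 3 (56 genes). PBS library 3 itself was at a median of 3.12 times PBS library 2. With FGF2, library 1 was at a median of 6.99 times library 2 (53 genes) and 4.35 times library 3 (55 genes). The wider steps among the PBS libraries are built into the choice, which asked for larger ratios there. Over all 13381 genes with at least 0.5 RPKM, PBS library 1 was at a median of 1.07 times PBS library 2, and FGF2 library 1 at 1.31 times FGF2 library 2.

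The highest of the genes, ENSGALG00000029094, has a gene model of 300 bases. It stood at 462, 127 and 146 RPKM in FGF2 libraries 1, 2 and 3, against 5505, 155 and 385 RPKM in PBS libraries 1, 2 and 3. PBS library 1 was thus more than 10 times any other library. The means were 244.8 ± 189 RPKM with FGF2 and 2015 ± 3025 RPKM with PBS (SD, n = 3 libraries each), so the difference between the beads was smaller than the SD among the PBS libraries. Within experiment 1, FGF2 was at 0.0840 times PBS (95% interval 0.0800 to 0.0880, exact binomial, counting error only). Within experiments 2 and 3 the ratio was 0.818 and 0.378.

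ENSGALG00000025557, of 287 bases, came next. Its levels were 319, 92.5 and 100.1 RPKM with FGF2, against 2970, 155 and 235 RPKM with PBS, in libraries 1, 2 and 3. Here too PBS library 1 stood far above the rest, and FGF2 was at 0.107, 0.597 and 0.427 times PBS in experiments 1, 2 and 3. These 2 short genes showed the widest gap between the beads in experiment 1 of all 56 genes.

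The genes that followed in level were longer. Their gap between the beads was smaller in experiment 1 and larger in experiments 2 and 3 than that of the 2 highest genes. ENSGALG00000032378 (1173 bases) stood at 360, 34.5 and 50.9 RPKM in FGF2 libraries 1 to 3, against 1367, 61.6 and 179 RPKM in PBS libraries 1 to 3. FGF2 was at 0.263 times PBS in experiment 1 (95% interval 0.255 to 0.272), 0.561 times in experiment 2 and 0.284 times in experiment 3. FGF2 was below PBS in each experiment, yet FGF2 library 1 was above PBS libraries 2 and 3. ENSGALG00000034355 (765 bases) stood at 164, 23.5 and 32.9 RPKM with FGF2, against 813, 41.3 and 112 RPKM with PBS. ENSGALG00000034566 (3773 bases) stood at 102, 7.94 and 31.8 RPKM with FGF2, against 664, 14.1 and 90.1 RPKM with PBS. All 3 genes repeated the order PBS library 1, FGF2 library 1, PBS library 3.

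The genes shared 1 pattern closely. For each gene the log2(RPKM + 0.5) values were set against the gene's own mean over the libraries, and the median over the 56 genes was taken as their profile. The profile stood at 0.91, -1.75 and -1.19 on the log2 scale in FGF2 libraries 1, 2 and 3, against 3.16, -1.42 and 0.28 in PBS libraries 1, 2 and 3. A gene's correlation with the profile had a median of 0.981 over the 6 libraries and ran from 0.736 to 0.998. Between 2 of the genes the median correlation was 0.957 over the 1540 pairs, with a range of 0.560 to 0.9996. Genes chosen to be high in the same libraries must correlate, so these values describe how tight the set is and support nothing more. The range of a gene over the libraries had a median of 5.13 on the log2 scale in the 56 genes, against 1.08 in the other 7495 genes with at least 5 RPKM. A wide range is also built into the choice, which asked for at least 8 times between PBS libraries 1 and 2.

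How far a gene strayed from the profile was less fixed by the choice. The root mean square distance from it had a median of 0.36 on the log2 scale and was below 0.3 in 13 genes. ENSGALG00000040736 (1414 bases) lay closest, at 0.13. It had 13.3, 1.99 and 2.43 RPKM with FGF2, against 68.8, 1.90 and 8.67 RPKM with PBS, in libraries 1, 2 and 3. The farthest were ENSGALG00000028267 and ENSGALG00000046060, both at 1.26, which are described below with their values. Genes under 500 bases had a median distance of 0.62, against 0.32 for longer genes. The short genes also had fewer reads, with a median of 5 in PBS library 2 against 237 for the longer genes, and the part of counting error in their distance was not tested.

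Between the beads, the 56 genes were lower with FGF2 in experiment 1 and, for most of them, in experiment 3, with a smaller gap in experiment 2. In experiment 1 all 56 were lower, as the choice requires, whereas 33.9% of the 13381 genes tested were lower there. The median difference, FGF2 minus PBS on the scale of log2(RPKM + 0.5), was -2.19 in experiment 1, with quartiles at -2.35 and -2.02. As a ratio, FGF2 was at a median of 0.216 times PBS. The median difference of all genes tested was 0.21. The middle range between the quartiles was 0.33 for the 56 genes, against 0.67 for the other 7495 genes with at least 5 RPKM. In experiments 2 and 3 it was wider in the 56 genes, at 0.92 and 0.82, against 0.72 and 0.71 in the other genes. Both libraries of experiment 1 were used in the choice, so its narrow range is a description.

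In experiment 2, 38 of the 56 genes were lower with FGF2, 17 were higher and 1 was equal, against 43.4% lower among all genes tested. The median difference was -0.39, with quartiles at -0.79 and 0.13, while the median of all genes tested was 0.01. In experiment 3, 53 genes were lower and 3 were higher, against 45% lower among all genes tested. The median difference was -1.497, with quartiles at -1.79 and -0.97, and that of all genes tested was 0.04. As ratios, FGF2 was at a median of 0.755 times PBS in experiment 2 (52 genes) and 0.320 times in experiment 3 (55 genes). Both libraries of each of these experiments entered the choice of the genes, in separate ratios, so neither count is independent of it.

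**Figure D3:**
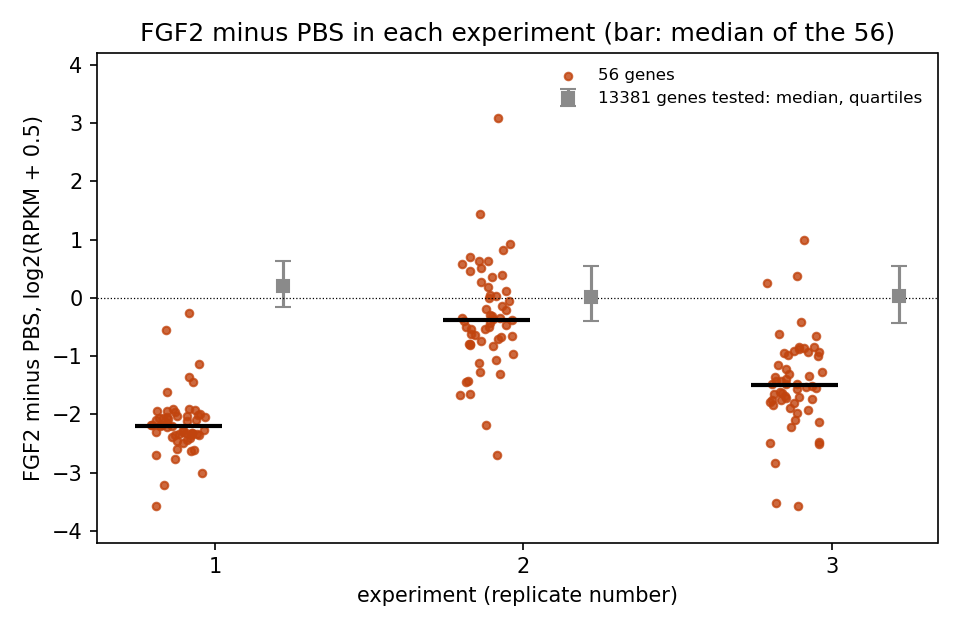
FGF2 minus PBS on the log2(RPKM + 0.5) scale (vertical axis) within experiments 1, 2 and 3 (horizontal axis). Orange points are the 56 genes and black bars their medians of -2.19, -0.39 and -1.497, and grey squares with bars are the median and quartiles of all 13381 genes tested, which lie near 0.

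Over the experiments, 35 of the 56 genes were below PBS in all 3, while 9.18% of all genes tested were. The choice fixes the direction in experiment 1 for the 56 genes, whereas 33.9% of all genes tested were lower there. The choice also caps libraries 2 and 3 relative to library 1 of the same bead. The directions in experiments 2 and 3 are thus not free of it either. These shares are therefore not like for like. Another 18 were lower with FGF2 in experiments 1 and 3 but not in 2, and 3 were lower in experiments 1 and 2 but not in 3. In 0 of the 56 genes did every FGF2 library lie below every PBS library, beside 2.01% of all genes tested. The choice makes FGF2 library 1 high and PBS library 2 low, which leaves little room for such a gene. FGF2 library 1 lay above PBS library 3 by a median of 0.56 on the log2 scale. The gap between the beads in experiment 1, -2.19, was about as large as the step of 1.95 between FGF2 libraries 1 and 3, a step that the choice asked for.

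In the fit of FGF2 against PBS across all genes, 0 of the 56 were lower and 0 were higher at an adjusted p under 0.05 (limma on log2(RPKM + 0.5), Benjamini-Hochberg), and 0% of the 13381 genes were called in either direction. At an unadjusted p under 0.05, 0 of the 56 were called, and 0.882% of all genes tested were lower. The choice asked for wide steps among the libraries of each treatment, which makes the error of this fit large. Nothing is therefore read from the counts of 0 in the 56 genes. The median log2 fold change of the 56 genes was -1.33, beside 0.11 for all genes tested. Without PBS library 1 the median was -0.17, and 34 of the 56 genes stayed below 0. Without PBS library 2 the median was -2.43. Leaving out 1 library keeps the other library of its experiment, and the choice makes FGF2 library 1 the highest with FGF2. The -0.17 therefore does not show how far the difference rests on PBS library 1.

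When FGF2 and PBS were set against each other within experiments, on the recovered reads weighted by their precision (limma-voom with the replicate block), 23 of the 56 genes were lower at an adjusted p under 0.05 and 0 were higher. Over all genes tested 26 were lower, or 0.194%, and 14 were higher, or 0.105%. The 56 genes thus held most of the lower calls of this fit, but the fit uses the contrast by which they were chosen, and nothing is read from the count. Without experiment 1 the same fit called 0 of the 56 and 0 of all 13381 genes, with a median log2 fold change of -1.14 in the 56. Without experiment 2, 38 of the 56 were lower, of 98 lower and 82 higher genes among the 13381. Without experiment 3, 36 of the 56 were lower, of 59 lower and 19 higher genes. The choice fixes the direction in experiment 1, and the libraries of experiments 2 and 3 entered it as well. The counts of these fits, with or without experiment 1, therefore do not show which experiment carries the difference. limma on RPKM with the replicate block, and limma-voom without it, called 0 of the 56 and 0 of all 13381 genes in either direction.

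A few genes went their own way. ENSGALG00000028267 (885 bases) was nearly level between the beads in experiment 1, at 15.3 RPKM in FGF2 library 1 against 18.4 RPKM in PBS library 1. The ratio of 0.834 had a 95% interval of 0.645 to 1.09, so counting error alone covers equality. The choice allowed only a ratio below 1 here, and each bead had 1 library, so the interval is a description and not a test. It was higher with FGF2 in experiment 2, at 4.50 RPKM against 1.35 RPKM with PBS. In experiment 3 it was at 0.0570 RPKM with FGF2, which is 1 read, against 2.68 RPKM with PBS, which is 40 reads. Its correlation with the profile, 0.736, was the lowest of the 56.

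ENSGALG00000037746 (405 bases) was the gene with the lowest mean, at 9.83, 1.27 and 0.374 RPKM with FGF2 against 14.7, 0.738 and 4.39 RPKM with PBS. It had the smallest ratio of PBS library 1 to the mean of the other PBS libraries, 5.72. ENSGALG00000037512 (3183 bases) was next at 5.93, with 40.6, 5.43 and 10.5 RPKM with FGF2 against 168, 18.1 and 38.7 RPKM with PBS. ENSGALG00000041175 (2039 bases), at 6.90, had 61.7, 12.3 and 18.7 RPKM with FGF2 against 242, 16.1 and 53.9 RPKM with PBS. The last 2 of these were lower with FGF2 in all 3 experiments.

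At the other end, ENSGALG00000032227 (152 bases) had the largest such ratio, 113. It stood at 15.9 RPKM in FGF2 library 1 and at 0 in FGF2 libraries 2 and 3, against 44.1, 0 and 0.779 RPKM in PBS libraries 1, 2 and 3. In reads these are 37, 0 and 0 with FGF2, against 35, 0 and 2 with PBS. Its lower level with FGF2 in experiment 1 thus came with slightly more reads, in a deeper library. A count of 0 allows up to 3 reads, or 0.924 and 0.996 RPKM in FGF2 libraries 2 and 3 and 1.18 RPKM in PBS library 2. Of all 56 genes, 5 had more reads in FGF2 library 1 than in PBS library 1.

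ENSGALG00000046060 (168 bases) had the next largest ratio, 65.5. It stood at 30.3, 9.75 and 2.10 RPKM with FGF2, against 162, 0.712 and 4.23 RPKM with PBS, in libraries 1, 2 and 3. In experiment 2 it was 1 of the 17 genes that were higher with FGF2, with 35 reads with FGF2 against 2 reads with PBS. ENSGALG00000044044 (168 bases), at 51.4, had 8.55, 0 and 0.601 RPKM with FGF2, against 27.4, 0.712 and 0.353 RPKM with PBS. It rested on few reads, with 22, 0 and 2 with FGF2 against 24, 2 and 1 with PBS.

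The difference between the beads in experiment 1 was largest in the 2 highest genes and then in ENSGALG00000039810 (1124 bases). This gene had 15.1, 2.79 and 5.52 RPKM with FGF2, against 125, 1.70 and 17.9 RPKM with PBS. FGF2 was at 0.121 times PBS in experiment 1 (95% interval 0.105 to 0.140) but at 1.64 times in experiment 2 (1.06 to 2.58). It was nearest to 0 in ENSGALG00000028267, ENSGALG00000037746 and ENSGALG00000044762 (168 bases). The last of these had 14.8, 0.279 and 1.503 RPKM with FGF2, against 33.1, 0.356 and 7.40 RPKM with PBS.

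The lengths of the gene models, which entered the choice only through RPKM, leaned to short models. They ran from 55 to 6394 bases, with a median of 1042 bases, against a median of 1841 bases for the 7551 genes with at least 5 RPKM. Models under 500 bases made up 19 of the 56 genes, or 33.9%, against 6.78% of the 7551 genes. Models under 200 bases made up 11 of the 56, or 19.6%, against 1.72%. At the long end the set was closer to the rest, with 9 genes over 3000 bases, or 16.1%, against 21.6% of the other genes. RPKM divides by length, so a mean of 5 RPKM is reached with fewer reads by a short gene. That mean also counts the shallowest library, where the choice makes each gene highest. Short genes with few reads elsewhere could thus pass the limit through that library, and their ratios then rest on few reads. The lean to short models is therefore not independent of the choice, and the part of the choice in it was not tested.

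**Figure D4:**
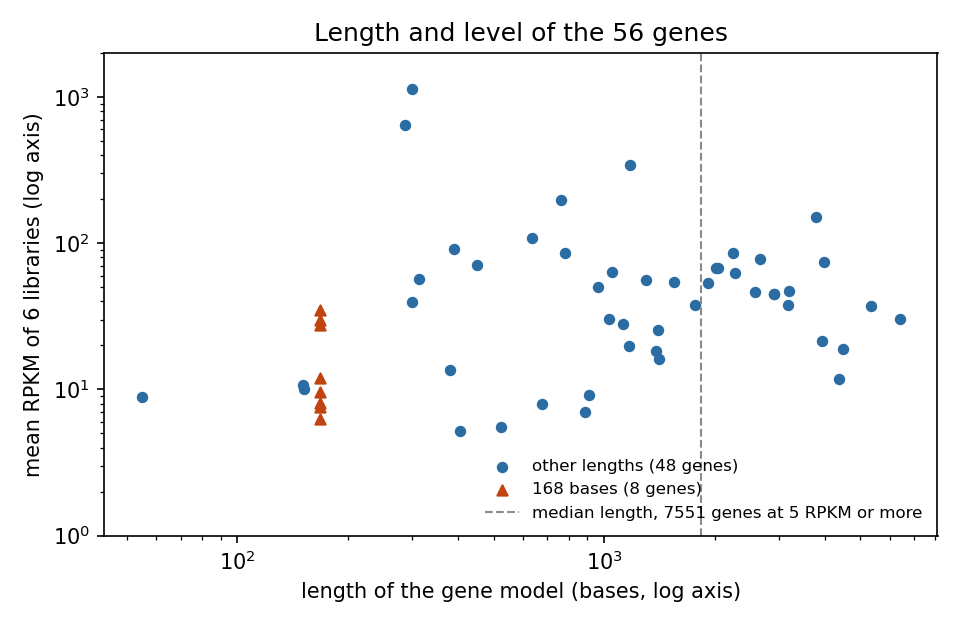
Mean RPKM over the 6 libraries (vertical log axis) against the length of the gene model in bases (horizontal log axis), 1 point per gene. Triangles are the 8 genes of 168 bases, circles the other 48 genes, and the dashed line is the median length of 1841 bases of the 7551 genes with at least 5 RPKM.

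The levels of short and long genes are given side by side, since all were chosen for the same pattern. Genes under 500 bases had a median of 17.5, 1.27 and 2.10 RPKM in FGF2 libraries 1 to 3, against 52.0, 1.42 and 7.54 RPKM in PBS libraries 1 to 3. The 37 longer genes had a median of 41.3, 6.56 and 9.58 RPKM with FGF2, against 168, 7.87 and 26.5 RPKM with PBS. The 9 genes over 3000 bases, which together had 20145 reads in FGF2 library 1 and 37137 in PBS library 1, had a median of 25.8, 5.12 and 8.66 RPKM with FGF2, against 141, 7.43 and 24.4 RPKM with PBS. PBS library 1 was at a median of 11.9 times PBS library 3 in the genes under 500 bases and 6.83 times in the longer ones, and FGF2 library 1 at 6.27 and 3.58 times FGF2 library 3. These differences between short and long genes were not tested. The median difference between the beads was -2.11, -0.54 and -1.43 in experiments 1, 2 and 3 for genes under 500 bases, and -2.20, -0.38 and -1.53 for the longer ones. In the longer genes the median was 1255, 267 and 347 reads in FGF2 libraries 1, 2 and 3, against 1675, 237 and 848 reads in PBS libraries 1, 2 and 3. Some of them still had few reads in the low libraries. ENSGALG00000031523 (523 bases) had 1 read in FGF2 library 2 and 1 read in PBS library 2.

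The length that most of the 56 genes had in common was 168 bases, shared by 8 of them. Of the 9 genes of 168 bases with at least 5 RPKM, 8 were among the 56. The mean counts PBS library 1, which the choice makes high, so short genes with few reads elsewhere could pass through that library. Another 10 genes with a recovered length of 168 bases and a value above 0 averaged below 5 RPKM. In 1 of these, ENSGALG00000029564, the length is uncertain. Its value in FGF2 library 1, taken as 1 read, was 0.388782 RPKM, against 0.388572 RPKM for 1 read of ENSGALG00000043991 there. Together the 8 genes among the 56 held 362, 55 and 58 reads in FGF2 libraries 1, 2 and 3. In PBS libraries 1, 2 and 3 they held 504, 54 and 129 reads. Their summed level was 141, 15.3 and 17.4 RPKM with FGF2, against 574, 19.2 and 45.5 RPKM with PBS. The ninth gene, ENSGALG00000029710, was the highest of the 9 and did not share the pattern. It had 202, 130 and 65.5 RPKM with FGF2 against 212, 214 and 301 RPKM with PBS. The sources used here do not say how reads matching several genes were counted. Genes of equal length may be near-identical copies that share reads, so these 8 genes may be fewer than 8 separate measurements. No sequences were at hand, so this was not tested.

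The Ensembl numbers of the genes were high as well. They ran from 25557 to 46544, and 55 of the 56, or 98.2%, had a number of at least 28000, against 41.2% of the 7551 genes with at least 5 RPKM. The split at 28000 was chosen after the numbers had been seen. The gene table used here holds 0 Ensembl IDs, so what kinds of gene these numbers stand for was not analysed here.

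Some limits of the choice had close neighbours on both sides. Of genes with at least 5 RPKM, 50 failed exactly 1 of the conditions, and in 27 of these it was the ratio of FGF2 library 1 to FGF2 library 3. The gene closest inside that limit, ENSGALG00000045810, had a ratio of 2.54, and the closest outside, ENSGALG00000027315, had 2.497. ENSGALG00000045810 stood at 68.4, 13.4 and 26.9 RPKM with FGF2 against 469, 17.2 and 54.5 RPKM with PBS, and ENSGALG00000027315 at 33.0, 9.96 and 13.2 RPKM with FGF2 against 132, 15.9 and 43.1 RPKM with PBS. FGF2 library 1 was above PBS library 3 in the first gene and below it in the second. For FGF2 library 1 over FGF2 library 2 the nearest genes were ENSGALG00000046060 inside at 3.11 and ENSGALG00000025650 outside at 2.38.

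The limits on the PBS ratios were the only condition failed in 8 and 3 genes. For PBS library 1 over PBS library 2, ENSGALG00000037512 lay inside at 9.31 and ENSGALG00000029182 outside at 7.57. For PBS library 1 over PBS library 3, ENSGALG00000037746 lay inside at 3.34 and ENSGALG00000042263 outside at 2.64. The lowest mean inside was 5.21 RPKM, in ENSGALG00000037746, and the highest outside was 4.84 RPKM, in ENSGALG00000037418. Below 5 RPKM, 398 genes met every other condition, most of them at very low levels, and 106 of these averaged at least 0.5 RPKM.

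The condition on direction removed only 4 genes. ENSGALG00000016538, ENSGALG00000020067, ENSGALG00000028279 and ENSGALG00000043357 met all 4 ratios but were higher with FGF2 in experiment 1, at 13.4, 20.2, 16.8 and 19.2 RPKM with FGF2 against 9.53, 13.1, 13.8 and 5.46 RPKM with PBS. Genes that were high in experiment 1 with both beads were thus mostly lower with FGF2 there, 56 against 4, whereas 33.9% of all genes tested were. The ratios themselves favour this direction, because they ask for a larger step in the PBS libraries than in the FGF2 libraries.

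Genes outside the set also followed its profile. Among genes with at least 5 RPKM, 92 had a correlation of at least 0.95 with the profile over the 6 libraries. Of these, 47 were members and 45 were not. The range of these 45 over the libraries had a median of 3.25 in log2 units, less than the 5.13 of the members, whose wide range the choice requires. Of the 45, 42 failed the ratio of FGF2 library 1 to FGF2 library 3, and all 45 were lower with FGF2 in experiment 1. The profile is highest in PBS library 1, so a correlation this close to it all but sets that direction. Correlation ignores the size of a change, and 8 of the 45 had a range under 1.

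The closest of these genes was ENSGALG00000029182 (1549 bases), with a correlation of 0.992. It stood at 72.5, 17.0 and 19.6 RPKM with FGF2, against 157, 20.7 and 47.0 RPKM with PBS, and missed only the ratio of PBS library 1 to PBS library 2. ENSGALG00000042435 (2142 bases), with a correlation of 0.988, stood at 87.8, 19.3 and 37.0 RPKM with FGF2, against 409, 33.4 and 65.3 RPKM with PBS. Both repeat the pattern of the set at a level above its median. ENSGALG00000041461 (3989 bases) had a correlation of 0.987 but scarcely moved, with 94.2, 86.3 and 86.5 RPKM with FGF2 against 101, 85.4 and 93.2 RPKM with PBS. These 3 were picked from the 4 with the highest correlation after their values were seen.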

How the data were processed

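RNA from tissue posterior to FGF2 or PBS beads was sequenced in 6 libraries, 3 per treatment. The authors deposited RPKM per Ensembl gene, made with systemPipeR from HISAT2 alignments to galGal5, and used edgeR for their comparison. The counting program, its strand setting and its rule for reads matching several genes are not named in the labels or the paper's methods.

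Reads per gene, gene-model lengths and library totals were recovered from the RPKM, whose values are whole multiples of 1 read. Recovered reads came to 98.8% to 99.2% of each total. A gene whose reads all share a factor leaves its length open by that factor, and the smallest whole length of at least 50 bases was taken. Precision varies with depth: 1 read in 1 kilobase is worth 0.191 RPKM in PBS library 1 and 0.0468 RPKM in FGF2 library 2. Intervals of ratios are exact binomial (Clopper-Pearson, 95%) and, like the limit of 3 reads behind a count of 0, cover counting error only.

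Members were found on deposited RPKM by the rule in the text, a denominator of 0 passing when the numerator was above 0. No test was made on them as a set. They stay in the fits across all genes, whose calls are given as background. The whole-table comparison of FGF2 with PBS used limma 3.58.1 in R 4.3.3 (lmFit, then eBayes with trend; two-sided) on log2(RPKM + 0.5). It took in 13381 genes averaging 0.5 RPKM or more, with Benjamini-Hochberg adjustment. The pseudocount understates changes of low genes. Alternatives were other pseudocounts, filters and scalings, leaving out each library, the replicate block, and limma-voom on recovered reads. Scripts (Python 3.11.15, scipy 1.17.1) were tested on simulated data.

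Libraries were paired by replicate number. No source states this pairing, but within each pair the deviations from the treatment means went together. Their correlations across genes were 0.44, 0.28 and 0.40, against -0.29 to -0.12 for other numbers. Deviations from a treatment mean cancel out over its libraries, so positive values within pairs force negative ones elsewhere on average. The negative values are therefore not separate evidence for the pairing. The paper describes 3 independent experiments with RNA pooled within each treatment.

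The members and lists were chosen with earlier results of these data known. Named genes were the 5 members with the highest mean, the 3 at each end of the ratio of PBS library 1 to the mean of the other PBS libraries and of the experiment 1 difference, and the nearest on each side of every limit. ENSGALG00000040736, the genes that followed the profile, the 4 genes that failed on direction and ENSGALG00000029710 were added after their values were seen. Marker lists could not be applied: of 25635 genes in the table of names, 0 carry an Ensembl ID. No library was left out.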

Additional observations from a re-analysis of the deposited data

How the results depend on the processing

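The number of genes found was 56 with the limits as given and 56 with 0.5 RPKM added in every ratio. It was 108 with a mean of at least 1 RPKM, 46 with a mean of at least 10 RPKM, 38 with every ratio made 25% stricter, 77 with every ratio loosened by the same factor, 43 after median-ratio scaling and 60 without the condition on direction. With the stricter ratios the genes held 1.02% of the summed RPKM of PBS library 1, against 2.498% for the 56. Under the 6 alternatives the median difference between FGF2 and PBS ran from -2.46 to -2.17 in experiment 1. It ran from -0.52 to -0.36 in experiment 2 and from -1.64 to -1.41 in experiment 3. All moves were below 0.91, the SD of the 3 experiment medians. That is a loose measure for experiment 2, whose median of -0.39 is smaller in size.

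Across all genes, the replicate block gave 0 higher and 0 lower, as did leaving out each library (0 to 0 in each direction). At an unadjusted p under 0.05 there were 339 higher and 118 lower genes. With the replicate block, limma-voom (fitted to the recovered reads) called 14 higher and 26 lower. The median log2 fold change of the 56 genes was -1.33, and -2.43 to -0.17 over the fits that left out 1 library, with -0.17 without PBS replicate 1 and -2.43 without PBS replicate 2. After median-ratio scaling it was -1.45, beside -0.01 for all genes. The last measure and the fits by experiment were added after seeing the data. Depth limits the short genes most, with a median of 5 reads in PBS library 2 for those under 500 bases. The cause of these changes was not tested.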
